A study of Mus musculus with 6 samples.

Results

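Folate carries single carbon units in mammalian cells, and separate sets of enzymes handle them in the mitochondrial matrix and in the cytosol. Transcripts of 8 such enzymes were followed in mouse gastrocnemius, the large calf muscle. The 5 mitochondrial enzymes were Mthfd2, Mthfd2l, Mthfd1l, Aldh1l2 and Mtfmt, and the 3 cytosolic enzymes were Mthfd1, Aldh1l1 and Tyms. They were picked by symbol, with their Ogg1Tg and Control values in these libraries already known, so their values are a description and no test is drawn from them. All 8 were found among the 35491 named entries of the files, and all 8 were among the 23312 genes with a mean of at least 1 that were tested.

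RNA came from 3 Control mice and 3 Ogg1Tg mice. All 6 were males aged 20 weeks on a C57BL/6J background, fed chow and given no treatment. Ogg1Tg mice carry human OGG1-1a fused to a mitochondrial translocation signal, driven by a CMV/AG promoter. OGG1 is a DNA repair enzyme that removes oxidised guanine. The controls were C57BL/6J mice, and the comparison asks how muscle transcripts differ when the enzyme is sent to mitochondria. The labels do not say whether mice shared litters, so the spread is that between these 6 mice.

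In the mitochondrion, serine gives its side-chain carbon to tetrahydrofolate, and Mthfd2 or Mthfd2l oxidises the product to formyl-tetrahydrofolate. Mthfd1l then releases the carbon as formate, Aldh1l2 burns it to carbon dioxide, and Mtfmt places it on the initiator methionyl-tRNA of mitochondrial translation. Formate leaves for the cytosol, where Mthfd1 attaches it to folate again for purine and thymidylate synthesis. Tyms makes thymidylate for DNA, and Aldh1l1 is the cytosolic counterpart of Aldh1l2. Adult tissues usually hold little Mthfd2, which is well known from embryos, dividing cells and cells with impaired mitochondria, and its gene, like those of serine synthesis, is a known target of the transcription factor ATF4.

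Values are gene reads divided by a single factor per library, called scaled reads here, and they are not corrected for gene length. Where 3 values are given for a group, they stand in the order of replicates 1, 2 and 3. Depth in named genes was 45189860 to 56126407 reads per library. Ogg1Tg replicate 3 stood apart. Lymphocyte markers summed to 13987 scaled reads in that library, against 234 and 240 in the other Ogg1Tg libraries and 225 to 311 in Control. Muscle fibre genes such as Ckm, Acta1 and Myh4 were abundant in all 6 libraries, and the summed level of 10 of them was 16926700 to 20854600 in Control muscle and 16801400 and 20587000 in Ogg1Tg replicates 1 and 2. It was lowest, at 11705400, in Ogg1Tg replicate 3, which was also the lowest of the Ogg1Tg libraries for Mthfd2 and Aldh1l2; its part in those values was not tested. In bulk tissue, fewer cells of a type and less RNA per cell cannot be told apart. Mouse Ogg1, which does not report on the human transgene, had a log2 fold change of 0.01 ± 0.21 (SE; limma adjusted p = 0.99).

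The promoter stretches of 2 pairs of related enzymes are shown because the members of each pair differed in fold change between the groups. Each is the 250 bases before the RefSeq start on GRCm38.p6, the assembly of mm10, read 5′ to 3′ on the strand of the gene. Capitals mark CCAAT or its reverse complement ATTGG.
Mthfd2, chr6:83317605-83317854, minus strand: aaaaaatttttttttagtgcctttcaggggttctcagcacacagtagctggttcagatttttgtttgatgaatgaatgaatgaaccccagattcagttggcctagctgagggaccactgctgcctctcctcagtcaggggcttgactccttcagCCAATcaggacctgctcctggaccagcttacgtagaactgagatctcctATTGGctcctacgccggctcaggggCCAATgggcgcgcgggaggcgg
Mthfd2l, chr5:90930946-90931195, plus strand: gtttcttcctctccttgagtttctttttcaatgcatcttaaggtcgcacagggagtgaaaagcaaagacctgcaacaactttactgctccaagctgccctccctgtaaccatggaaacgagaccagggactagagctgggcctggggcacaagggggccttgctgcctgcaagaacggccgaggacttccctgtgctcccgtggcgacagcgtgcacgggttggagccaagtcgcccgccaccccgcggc
Mthfd1l, chr10:3972825-3973074, plus strand: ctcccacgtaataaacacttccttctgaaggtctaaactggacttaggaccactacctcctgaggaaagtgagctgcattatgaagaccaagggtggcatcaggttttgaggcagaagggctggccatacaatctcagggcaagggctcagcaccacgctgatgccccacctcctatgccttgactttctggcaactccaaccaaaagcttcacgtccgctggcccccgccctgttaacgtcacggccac
Mthfd1, chr12:76254982-76255231, plus strand: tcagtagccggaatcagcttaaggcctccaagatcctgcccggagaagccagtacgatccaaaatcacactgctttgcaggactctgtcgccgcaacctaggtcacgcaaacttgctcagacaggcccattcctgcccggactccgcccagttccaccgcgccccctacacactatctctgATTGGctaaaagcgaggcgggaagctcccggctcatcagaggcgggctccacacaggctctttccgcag

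Both strands of these windows were searched for 4 motifs. CCAAT, bound by the factor NF-Y, occurred 3 times before Mthfd2, 2 times before Aldh1l1, once before Mthfd1 and not in the windows of Mthfd2l and Mthfd1l. It was present in 33.8% of the 32851 windows of the same length in the RefSeq table. The letters TGATGNAA, a form of the element bound by ATF4 with C/EBP partners, were in none of the 7 member windows and in 3.45% of all windows. CACGTG, the E-box bound by Myc, was in the window of Tyms alone and in 6.02% of all windows, and GCATGCGC, the core of the NRF1 site, was in no member window and in 2.26% of all. A match is only a run of letters, and the absence of one says only that those letters are not in this window. For Mthfd2 and Aldh1l1 the window lies inside the GENCODE gene span given below, which begins upstream of the RefSeq start. The bases before those GENCODE starts were not searched. Aldh1l2 was not matched in the promoter table.

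Of the mitochondrial enzymes, Mthfd2, Mthfd1l and Aldh1l2 had higher values in every Ogg1Tg library than in any Control library. Mthfd2l and Mtfmt had values that overlapped between the groups. Among the cytosolic enzymes Mthfd1 alone lay higher without overlap, by a small margin, and Aldh1l1 and Tyms overlapped. So 4 of 8 members lay higher without overlap and 0 lower, where 7.03% of all tested genes lay higher and 11.3% lower without overlap. In the limma fit over all genes, with calls at an adjusted p under 0.05, 0.395% of genes were called higher and 0.15% lower. Those called included Mthfd2, Mthfd1l and Aldh1l2, and, since the members were chosen with this contrast known, nothing is read from that count.

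**Figure D1:**
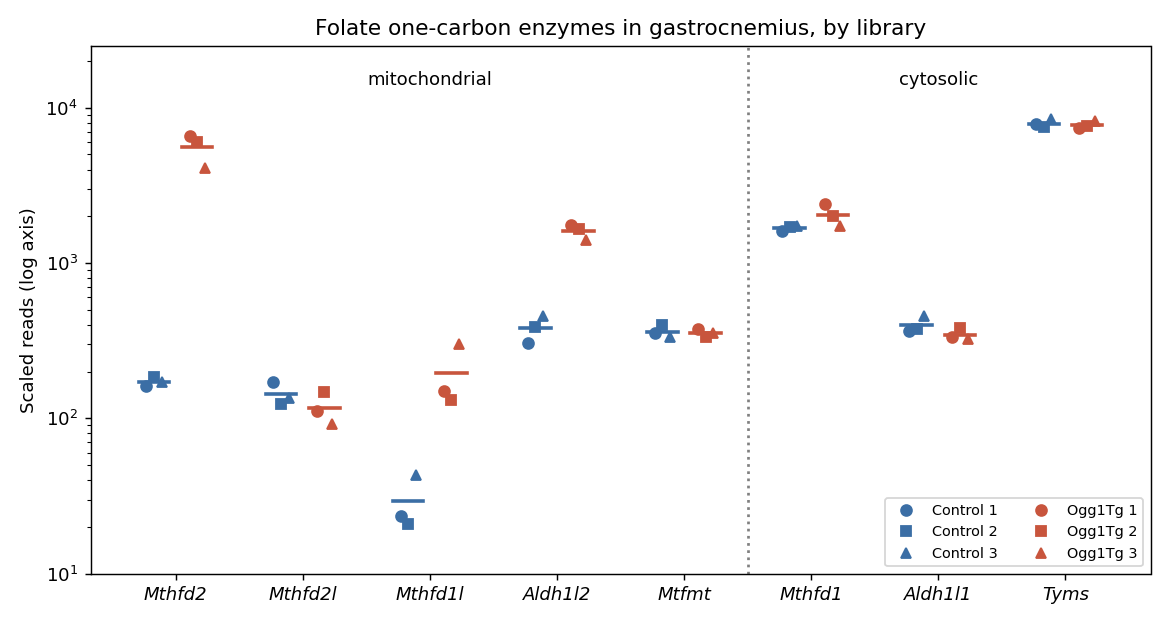
Scaled reads of the 8 enzymes in each library, on a log axis; bars are group means and each marker is 1 mouse (blue Control, red Ogg1Tg). Mthfd2, Mthfd1l and Aldh1l2 are separated between the groups, whereas the groups overlap for Mtfmt and Tyms.

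Mthfd2, the dehydrogenase and cyclohydrolase of the matrix, differed most. It measured 161, 185 and 171 scaled reads in Control muscle. The Ogg1Tg libraries gave 6591, 6013 and 4113. The lowest Ogg1Tg value lay far above the highest Control value, and the library with the lowest of the Ogg1Tg values was replicate 3. The means were 172 ± 11.9 and 5572 ± 1296 (SD, n = 3), a log2 fold change of 4.98 ± 0.18 (SE), or 31.6-fold. Without Ogg1Tg replicate 3 the fold was 36.4. The gene lies on chromosome 6 from 83305691 to 83325908 on the minus strand, and no annotated gene shares exon sequence with it.

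Mthfd2l, its paralogue in the same compartment, showed no such difference. It measured 172, 123 and 134 in Control muscle. Ogg1Tg muscle gave 112, 147 and 91.5. The groups overlapped, at a log2 fold change of -0.30 ± 0.26 (SE). It lies on chromosome 5 from 90931117 to 91021368. Per kilobase of exon, Mthfd2 took 69.6% ± 5.11 of the pair in Control and 98.9% ± 0.195 in Ogg1Tg muscle (SD, n = 3), so the ratio of Mthfd2 to Mthfd2l went from 2.35 ± 0.541 to 91.9 ± 17.8. Within single libraries that ratio was 1.78, 2.86 and 2.42 in Control muscle and reached 112, 78.03 and 85.6 with the transgene.

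Mthfd1l, the matrix synthetase that releases formate, was the scarcest member in Control muscle. It measured 23.6, 21.0 and 43.1 scaled reads in Control muscle, which rest on 17, 15 and 33 reads. The Ogg1Tg libraries gave 151, 131 and 302, from 136, 99 and 300 reads. Every Ogg1Tg library was higher than every Control library, and replicate 3 was the highest. The log2 fold change was 2.67 ± 0.41 (SE), or 6.34-fold, and 4.92-fold without Ogg1Tg replicate 3. Its call was the least steady of the 3, being kept in 2 of the 6 fits with a library removed and absent without Control replicate 1, 2 or 3 or Ogg1Tg replicate 1. The gene lies on chromosome 10 from 3973118 to 4167081.

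The higher Mthfd1l value of Ogg1Tg replicate 3 came with other shifts in that library. With all 6 libraries fitted, the 9 lymphocyte markers tested had a fold change above 0. Without Ogg1Tg replicate 3, Ptprc, Cd2 and Cd52 had log2 fold changes of -0.46, -0.08 and -0.27. Cd3g then fell below the filter, and the remaining markers stayed above 0. The median log2 difference of the 9 from the Control mean was 7.63 in replicate 3. It was 1.00 and 0.53 in Ogg1Tg replicates 1 and 2 and -0.47 to 0.44 in the Control libraries. Ptprc, a marker of all leukocytes, made up much of the lymphocyte sum outside replicate 3, at 173 to 243 scaled reads in Control and 154 and 135 in Ogg1Tg replicates 1 and 2. Of these markers Cd3g had 0 reads in each Control library. The 10 cell division markers summed to 2038 in Ogg1Tg replicate 3, against 1242 and 1154 in the other Ogg1Tg libraries and 1183 to 1397 in Control. They were not alike. Mki67 and Top2a measured 434 and 208 in replicate 3, above their highest Control values of 142 and 73.1. Pcna and Mcm2, the most abundant of the list, measured 594 and 356 there, against 527 to 736 and 369 to 441 in Control. The 9 macrophage markers summed to 9931 in replicate 3, against 4158 and 3543 in the other Ogg1Tg libraries and 4887 to 6862 in Control. Lyz2 gave 3460 of that sum, and Cd163 stayed below its Control range, at 654 against 670 to 897. Of 7 neutrophil markers, Ly6g and Elane had 0 reads in all 6 libraries. The 7 summed to 35.2 in Ogg1Tg replicate 3, against 12.2 and 9.26 in the other Ogg1Tg libraries and 5.60 to 19.4 in Control. The part of these shifts in the Mthfd1l values was not tested.

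**Figure D2:**
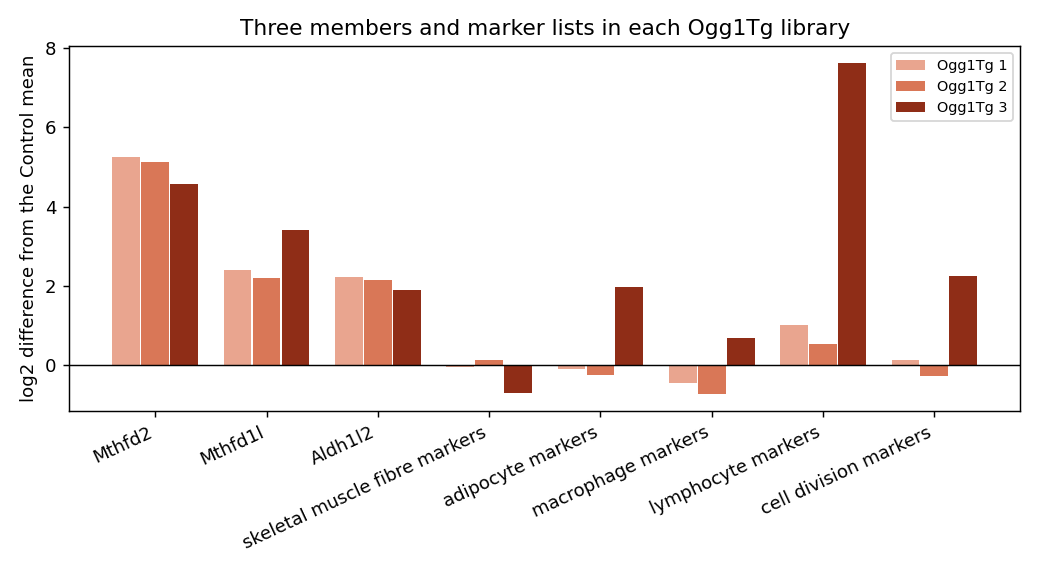
Difference from the Control mean, on the log2 scale, in Ogg1Tg replicates 1, 2 and 3 (light to dark bars) for Mthfd2, Mthfd1l and Aldh1l2 and for the median of 5 marker lists. The lymphocyte bar of replicate 3 reaches 7.63, while the Mthfd2 and Aldh1l2 bars of that library are the lowest of the 3.

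Aldh1l2, the matrix enzyme that burns the formyl group and yields NADPH, measured 304, 385 and 453 in Control muscle. In Ogg1Tg muscle it measured 1751, 1668 and 1404. The groups were well apart, with a log2 fold change of 2.09 ± 0.17 (SE), or 4.25-fold, and 4.54-fold without Ogg1Tg replicate 3. The gene lies on chromosome 10 from 83487450 to 83534140 on the minus strand. Its end shares 1056 exon bases with D10Wsu102e on the plus strand, and the sources used here do not say whether counting was by strand. D10Wsu102e measured 404 to 486 in Control and 433 to 600 in Ogg1Tg muscle, so the overlapping gene did not separate the groups.

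Aldh1l1, the cytosolic counterpart, lay the other way and overlapped. It measured 367, 376 and 456 in Control muscle. The Ogg1Tg libraries gave 334, 380 and 324. This is a log2 fold change of -0.20 ± 0.16 (SE). Aldh1l1 sits on chromosome 6 from 90486427 to 90600203. Aldh1l1 was at its lowest, by a small margin below replicate 1, in Ogg1Tg replicate 3. In that library the 10 adipocyte markers summed to 13535, against 4401 to 5536 in the other 5, and the part of this in the Aldh1l1 value was not tested. An antisense transcript that shares 499 exon bases with Aldh1l1, Gm15756, measured 8.05 to 43.0 over the 6 libraries. Per kilobase, Aldh1l2 took 36.3% ± 2.65 of this pair in Control and 73.6% ± 2.02 in Ogg1Tg muscle (SD, n = 3). On that scale the more abundant partner was the cytosolic one in each Control library and the mitochondrial one in each Ogg1Tg library. The Control order depends on the exon lengths used. In scaled reads, not divided by length, Aldh1l2 was above Aldh1l1 in Control replicate 2, at 385 against 376. It was below Aldh1l1 in Control replicates 1 and 3.

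**Figure D3:**
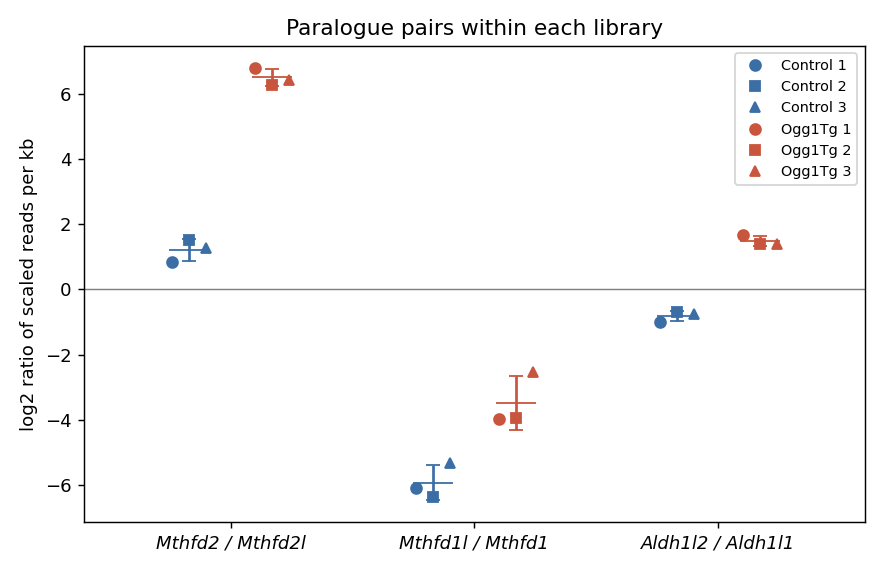
Within-library log2 ratio of scaled reads per kilobase for 3 pairs of related enzymes, with the mean and SD of 3 libraries per group. The ratio of Aldh1l2 to Aldh1l1 lies below 0 in each Control library and above 0 in each Ogg1Tg library, and Mthfd2 to Mthfd2l reaches 6.29 to 6.81 in Ogg1Tg muscle.

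Mtfmt, which formylates the initiator tRNA of mitochondrial translation, did not separate the groups. It measured 352, 399 and 334 in Control muscle. Ogg1Tg muscle gave 377, 336 and 352. All Ogg1Tg values lay inside the Control range, with a log2 fold change of -0.02 ± 0.15 (SE). Its place is chromosome 9, from 65435782 to 65453054. Aldh1l2, Mthfd1l and Mtfmt all draw on the formyl-tetrahydrofolate that Mthfd2 makes, and of these only Mtfmt had overlapping groups.

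Mthfd1 carries the corresponding reactions in the cytosol within a single protein. It measured 1620, 1719 and 1731 in Control muscle. The Ogg1Tg libraries gave 2396, 2009 and 1735. Replicate 3 lay just above the highest Control library, so the separation rests on a gap of a few scaled reads. The log2 fold change was 0.26 ± 0.14 (SE), or 1.20-fold, and 1.30-fold without Ogg1Tg replicate 3. Its locus is chromosome 12 from 76255298 to 76319803, and 37 of its exon bases are shared with Gm47525 on the opposite strand, which was not analysed here. Set against Mthfd1 per kilobase, Mthfd2 had a ratio of 0.130 ± 0.00615 in Control and 3.45 ± 0.399 in Ogg1Tg muscle (SD, n = 3). The ratio of Mthfd1l to Mthfd1 was 0.0172 ± 0.00676 and 0.101 ± 0.0635, with the highest value, 0.174, in Ogg1Tg replicate 3.

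Tyms, thymidylate synthase, was the most abundant member in Control muscle and did not separate the groups. It measured 7852, 7462 and 8408 in Control muscle. The Ogg1Tg libraries gave 7367, 7619 and 8179, for a log2 fold change of -0.03 ± 0.12 (SE). The gene lies on chromosome 5 from 30058202 to 30073617, and no annotated gene overlaps it. Its Control level was set beside those of 4 genes of DNA precursor synthesis, of which Tk1 and Rrm2 were picked out after their values were seen. Per kilobase, Tyms stood at 1299 ± 78.1 in Control (SD, n = 3), against means of 340 for Rrm2b, 142 for Rrm1 and 13.8 for Rrm2, all subunits of ribonucleotide reductase, and 124 for thymidine kinase Tk1. The proliferation marker Mki67 had a Control mean of 7.39 on the same scale.

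Per kilobase of exon, the order of the levels in Control muscle ran from Tyms and Mthfd1, at 380 ± 13.7, through Mtfmt at 99.0 ± 9.10, Aldh1l1 at 88.5 ± 10.7, Aldh1l2 at 50.7 ± 9.96 and Mthfd2 at 49.4 ± 3.42, to Mthfd2l at 21.5 ± 3.85 and Mthfd1l at 6.59 ± 2.72. Mtfmt and Aldh1l1 overlapped, as did Aldh1l2 and Mthfd2, and the other neighbours did not. In Ogg1Tg muscle Mthfd2 moved from the sixth place to the first, at 1598 ± 372, and overlapped with Tyms at 1268 ± 68.3. Next came Mthfd1 at 461 ± 74.7, Aldh1l2 at 214 ± 24.1, Mtfmt at 97.1 ± 5.59, Aldh1l1 at 76.6 ± 6.57, Mthfd1l at 43.9 ± 21.0 and Mthfd2l at 17.6 ± 4.21. No neighbours from Tyms downwards overlapped in that group. This order depends on the exon lengths used, which merge all annotated transcripts of a gene. In scaled reads, not divided by length, Tyms stayed above Mthfd2 in every Ogg1Tg library, at 7367 to 8179 against 4113 to 6591.

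As a summary of the compartments, the median log2 difference from the Control mean was taken over the mitochondrial and over the cytosolic members in each library. For the mitochondrial members it was 2.22, 2.15 and 1.90 in the Ogg1Tg libraries. For the cytosolic members it was -0.10, -0.05 and 0.04. The mitochondrial median exceeded the cytosolic one by 2.32, 2.20 and 1.86 in these libraries, against -0.10 to 0.12 in Control. This median is that of Aldh1l2, and the 5 mitochondrial members were not alike, with log2 fold changes from -0.30 for Mthfd2l to 4.98 for Mthfd2. The cytosolic members ran from -0.20 to 0.26, and the median over all 23312 tested genes was -0.02.

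The wider pathway was read from 67 other genes, listed by role with earlier results of these data known. Of the 67, 2 rose, 0 fell and 65 did not pass, which is 2.99% called, against the 0.395% called higher and 0.15% called lower over all genes. Their median log2 fold change was 0.00, beside -0.02 over all tested genes. Higher without overlap were 13 of the 67, or 19.4%, beside 7.03% of all tested genes. Lower without overlap were 9, or 13.4%, which is near the 11.3% of all tested genes. These were Mtr, Dld, Paics, Tk1, Rrm2b, Dguok, Ahcyl1, Ahcyl2 and Mtif2, and none of them passed.

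Both called genes belong to serine synthesis, which supplies the carbon unit that Mthfd2 oxidises. Psat1, the aminotransferase of that route, rose from 104, 36.4 and 67.9 in Control to 3265, 2631 and 2617 in Ogg1Tg muscle (limma adjusted p = 0.00011). Phgdh, its first enzyme, rose from 105, 83.9 and 107 to 1136, 1008 and 1347 (limma adjusted p = 5.0e-05). The groups were far apart for both, and Psat1 had a log2 fold change of 5.45 ± 0.33 (SE), beside 4.98 for Mthfd2. Psph, which completes the route, gave 456, 389 and 411 in Control and 670, 806 and 444 in Ogg1Tg muscle, which missed the threshold (limma adjusted p = 0.38).

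**Figure D4:**
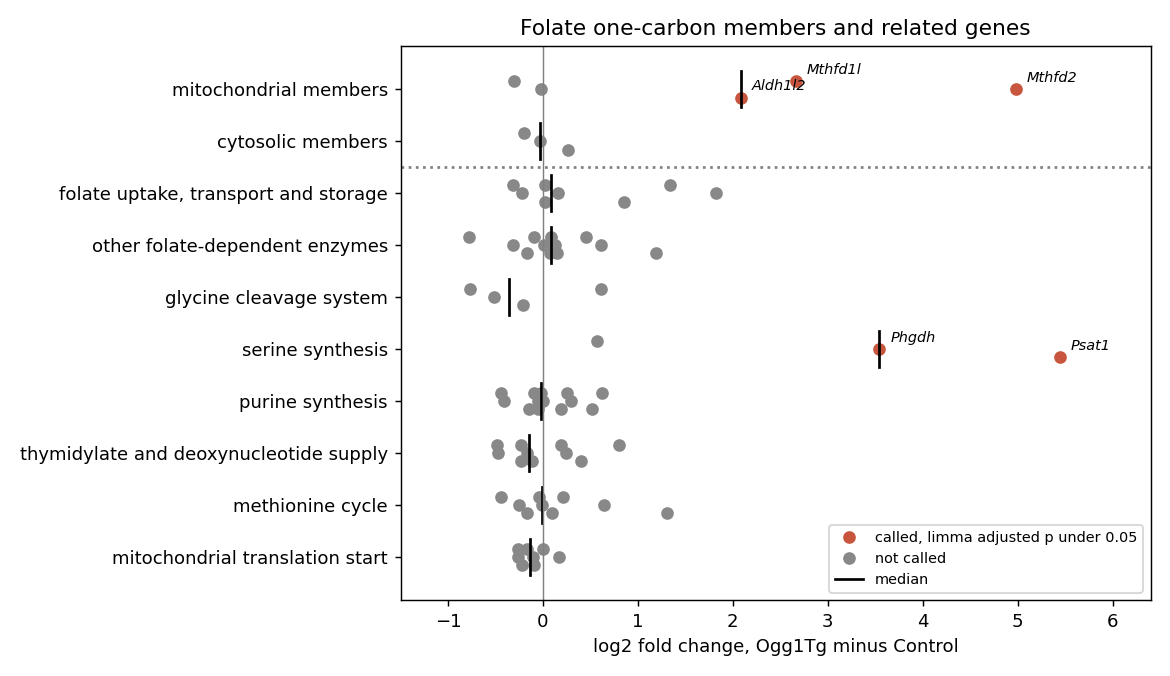
Fold change on the log2 scale, Ogg1Tg minus Control, of the 8 enzymes and 67 related genes by role; red points passed a limma adjusted p of 0.05 and black lines are medians. Outside the members only Psat1 and Phgdh of serine synthesis are red.

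The enzymes that join serine synthesis to the members had smaller differences. None of 12 other folate-dependent enzymes passed, and their median log2 fold change was 0.08. Shmt2, the mitochondrial serine hydroxymethyltransferase that feeds Mthfd2, measured 881, 934 and 903 in Control muscle. In Ogg1Tg muscle it measured 1686, 1337 and 1179. Its groups did not overlap and it did not pass, with a log2 fold change of 0.61 ± 0.15 (SE; limma adjusted p = 0.18). Without Ogg1Tg replicate 3, and with low genes filtered on the other 5 libraries, it passed at 0.73 (limma adjusted p = 0.016), but it was not called without that library when low genes were filtered on all 6. Its cytosolic counterpart Shmt1 measured 359 ± 38.7 and 492 ± 36.9 (SD, n = 3) and missed the threshold (limma adjusted p = 0.32). The Shmt1 groups did not overlap either. Sardh had the largest log2 fold change of the 12, at 1.20 ± 0.31 (SE), without overlap, and did not pass (limma adjusted p = 0.20). Mtr, methionine synthase, measured 1845 ± 105 and 1489 ± 214 (SD, n = 3; limma adjusted p = 0.45).

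None of 8 genes of folate uptake, transport and storage passed, with a median log2 fold change of 0.09. Slc25a32, the mitochondrial folate carrier, measured 645 ± 61.6 in Control and 520 ± 64.8 in Ogg1Tg muscle (SD, n = 3; limma adjusted p = 0.49). Fpgs, which traps folate in the cell by adding glutamate, measured 316 ± 45.2 and 320 ± 43.2 (SD, n = 3; limma adjusted p = 0.98). The folate carrier of the plasma membrane, Slc19a1, measured 237, 165 and 164 in Control and 351, 385 and 284 in Ogg1Tg muscle. Its groups did not overlap, and it did not pass (limma adjusted p = 0.18).

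The glycine cleavage system, the other mitochondrial source of folate-bound carbon, had a median of -0.36 in log2 fold change, and none of its 4 genes passed. Dld, a subunit shared with other dehydrogenase complexes, measured 9104 ± 518 and 6491 ± 1466 (SD, n = 3; limma adjusted p = 0.33). Gcsh, its lipoyl carrier protein, measured 947 ± 33.2 and 831 ± 171 (SD, n = 3; limma adjusted p = 0.68). Amt went the other way, at 61.3 to 102 in Control and 106 to 126 in Ogg1Tg muscle, and did not pass (limma adjusted p = 0.46). Gldc was scarce, at 13.7 ± 2.82 and 8.95 ± 7.08 (SD, n = 3; limma adjusted p = 0.69). The summed level of the 4 genes was lowest in Ogg1Tg replicate 3, at 5691 against 7783 and 8872 in the other Ogg1Tg libraries. Dld alone gave 4884 of that 5691.

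Among genes that use the products of the pathway no call was made. None of 13 genes of purine synthesis passed, with a median of -0.02. The muscle form of adenylosuccinate synthase, Adssl1, measured 21615 ± 2000.0 and 20037 ± 5563, and the lyase that follows it, Adsl, measured 4759 ± 196 and 4824 ± 816 (SD, n = 3). Impdh1 and Impdh2, which lead to guanine nucleotides, were higher without overlap at log2 fold changes of 0.62 and 0.52 but missed the threshold (limma adjusted p = 0.12 and 0.19). Paics, of the same list, was lower without overlap at -0.45 and also missed it (limma adjusted p = 0.24). None of 10 genes of thymidylate and deoxynucleotide supply passed, with a median of -0.14. In that list Rrm2b, a ribonucleotide reductase subunit of resting cells, measured 3109 ± 104 and 2644 ± 61.8, and Rrm1 measured 1563 ± 95.7 and 1446 ± 186 (SD, n = 3). Tk1 was lower without overlap at a log2 fold change of -0.47 (limma adjusted p = 0.25).

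None of 9 methionine cycle genes passed, with a median of -0.01. Mat2a, which makes S-adenosylmethionine, measured 9023 ± 1416 and 8912 ± 926 (SD, n = 3). Ahcyl1 measured 2737 ± 128 and 2443 ± 74.5 (SD, n = 3). A list of 8 genes covered mitochondrial translation start, processing of the first methionine and, in Gatb, Gatc and Qrsl1, the mitochondrial glutaminyl-tRNA amidotransferase. None of the 8 passed, with a median of -0.14. Among them the initiation factor Mtif2 measured 1534 ± 106 and 1363 ± 86.8, and Gatc, a subunit of the mitochondrial glutaminyl-tRNA amidotransferase, 1501 ± 24.8 and 1332 ± 426 (SD, n = 3).

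The number of pathway calls differed between fits. With Ogg1Tg replicate 3 left out and low genes filtered on the remaining 5, 7 of the 67 genes passed, all higher in Ogg1Tg muscle. They were Psat1, Phgdh, Psph, Shmt2, Slc19a1, Impdh1 and Impdh2. With low genes filtered on all 6 libraries, the fit without that library called Phgdh alone. DESeq2 on the reads of all 6 libraries also called 7, with Sardh in place of Psph.

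Genes with a course most like that of Mthfd2 over the 6 libraries were sought among 14191 genes with a mean of at least 10. Genes with predicted, Rik, pseudogene or small RNA names had been left out, as had all symbols that begin with Rn. Likeness was the root mean square difference between 2 genes in their log2 distance from the Control mean. The nearest was Asns, asparagine synthetase, at 0.28, followed by Slc7a11 at 0.46, Gabrr2 and Gdf15 at 0.48 and Trib3 at 0.58. Asns measured 116, 78.3 and 82.2 in Control and 3435, 2465 and 2174 in Ogg1Tg muscle, with replicate 3 lowest as for Mthfd2. Aldh1l2 was nearest to Atf5, at 0.25, followed by Arhgef2 at 0.28, Pck2 at 0.31, Stbd1 at 0.32 and Reep6 at 0.33. Atf5, a transcription factor, measured 1968, 2837 and 2191 in Control and 13960, 11202 and 9131 in Ogg1Tg muscle. Pck2, the mitochondrial phosphoenolpyruvate carboxykinase, measured 172, 155 and 208 in Control and 989, 538 and 808 in Ogg1Tg muscle. These lists describe 6 libraries, and any gene of like fold change comes near.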

How the data were processed

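The deposited files hold 1 library each. Although named FPKM, what the authors deposited is a signal: gene counts divided by a factor per library. Each was a whole multiple of 1 step per library within 0.01 for 100% of values, whatever the gene. The step of Ogg1Tg replicate 3, 1.006, is close to 1, so recovery is less distinctive there. Per the submitters' processing notes, Trimmomatic, SAMtools, HTSeq and mm10 were used. The sources used here name no aligner, annotation or strand setting. Entries without a gene name, 1824 of 37315 with 2.38% to 3.54% of reads, were left out.

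The scale was log2(value + 1), on which folds of low genes are understated. Where the mean was 1 or more, genes went through limma 3.58.1 under R 4.3.3 (variance trend, two-sided, Benjamini-Hochberg over all tested genes). Lengths are union exons of GENCODE M21 on GRCm38, which matched 35319 of 35474 symbols. Promoters are from RefSeq. edgeR 4.0.16 and DESeq2 1.42.0 on recovered reads were alternatives. The code was tested on simulated data. No 2 libraries were alike within sampling noise (chi-square per gene at least 13.9).

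The members and lists were chosen with earlier results of these data known. Named genes were the 8 members, Ogg1, every called pathway gene, the 2 genes of highest mean in lists without one, and the 5 genes nearest to Mthfd2 and to Aldh1l2. Slc19a1, Shmt1, Impdh1, Impdh2, Psph, Paics, Tk1, Rrm2, Dguok and Ahcyl2 were chosen after their values were seen. So were Sardh, Amt, Gldc, the 2 overlapping genes and the marker genes named. The fit without Ogg1Tg replicate 3 filtered on all 6 libraries was also added then.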

Additional observations from a re-analysis of the deposited data

How the results depend on the processing

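The log2 fold changes of Mthfd2 and Aldh1l2 lay between 4.85 and 5.19 and between 1.94 and 2.22 over 12 alternatives (pseudocount of 0.1, median-of-ratios rescaling, quantile normalization, replicate block, edgeR, DESeq2, and each library left out), and both were called in each. Mthfd1l lay between 2.30 and 2.97 and was called in 7 of the 12. Its call was lost with edgeR and without Control replicates 1, 2 or 3 or Ogg1Tg replicate 1. Member calls were not read from the fits with other low-gene filters, no variance trend or a robust variance trend. Nor were they read from the fit without Ogg1Tg replicate 3 filtered on all 6 libraries. Mthfd2l and Aldh1l1 stayed below 0 and Mthfd1 above 0 in all 12. Mtfmt and Tyms changed sign, from -0.08 to 0.05 and from -0.08 to 0.17, the last with quantile normalization, and were not called in any. The excess of the mitochondrial over the cytosolic median was 2.13 and ran from 1.99 to 2.27 with 1 library left out.

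Over all genes 127 were called. Leaving out a library gave 35 to 425: removing Control replicate 1, 2 or 3 left 43, 42 or 35, and removing Ogg1Tg replicate 1, 2 or 3 left 62, 194 or 425. It was 46 with no variance trend, 622 with DESeq2, and 28 without Ogg1Tg replicate 3 when filtered on all 6 libraries. In the other 8 alternatives it was 102 to 177. The cause was not tested. Of the 67 pathway genes 2 were called, 2 to 7 with 1 library left out, 7 with DESeq2 (Psat1, Phgdh, Shmt2, Slc19a1, Impdh1, Impdh2 and Sardh), and 1 without Ogg1Tg replicate 3 with the filter on all 6 libraries.

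The labels give both groups replicate numbers 1 to 3, but same-numbered libraries did not deviate together (correlations of -0.05, -0.01 and 0.03). With the replicate block 102 genes and 2 pathway genes were called, and the compartment excess was 2.13. Depth limits Mthfd1l most, whose Control values rest on 15 to 33 reads.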
